A study of Homo sapiens with 6 samples.

Results

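The genes described here encode the chains of integrins, the cell surface receptors that hold a cell to its matrix, and of laminins, the trimeric proteins that many of these receptors bind. They were chosen by name, as protein-coding genes of the table whose symbol is ITGA or ITGB followed by a number, or LAMA, LAMB or LAMC followed by a number. Described here are 31 of 58735 genes, of which 20 encode integrin chains (12 α and 8 β) and 11 encode laminin chains (5 α, 4 β and 2 γ). RNA was sequenced from HCT-8, an established human colorectal adenocarcinoma line grown as a monolayer in medium with serum. The control group was 3 samples with no treatment (control 1 to 3), and the other group was 3 samples given 5-fluorouracil (5-FU) at its 10% inhibitory concentration (5-FU 1 to 3). 5-FU is a pyrimidine analogue used against colorectal cancer that disturbs both DNA synthesis and RNA metabolism. The sources used here give neither its molar dose nor the length of exposure. All 6 libraries come from 1 cell line, and nothing in the labels says whether replicates are separate cultures or separate preparations of one culture, so the tests speak only of the spread among these 6 samples, which may be technical.

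An integrin is a pair of 1 α and 1 β chain, and the pairing sets what the receptor binds. The β1 chain pairs with many α chains, while β4 pairs with α6 alone and anchors hemidesmosomes, the junctions that tie epithelial keratin filaments to the basement membrane. A laminin is a trimer of 1 α, 1 β and 1 γ chain and is named by the numbers of its chains: laminin-332 holds α3 and β3 and lies under epithelial sheets, and laminin-511 and laminin-521 hold α5. In the gut epithelium, the main laminin receptors are α3β1, α6β1 and α6β4, the main collagen receptor is α2β1, and α5β1 and the αV integrins bind proteins with the RGD tripeptide such as fibronectin and vitronectin.

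The 3 control libraries held 21659252 to 23495607 counts and the 3 5-FU libraries 18459939 to 20613228. Mitochondrially encoded genes took 4.66% to 4.88% of the counts in the control libraries and 25.5% to 28.5% in the 5-FU libraries, and the part this plays in the results below was not tested beyond leaving those genes out, which gave 16 members higher and 5 lower. Levels of 1 gene across libraries are given as CPM (reads of the gene per total of reads, scaled by TMM factors), and levels of different chains, their sums and the scarcest chain of a complex are given as deposited FPKM, which is per length. The length is that of all merged exons of a gene, which can be longer than the message read. Which of several chains is the more abundant or the limiting one therefore holds only for these lengths. FPKM carries an extra scaling that sets 5-FU libraries lower against control than CPM does, by 0.14 on the log2 scale at the median, so a change of an FPKM level between groups includes it; ratios and shares within a library do not. Fold changes, standard errors (SE) and adjusted p-values are from edgeR's quasi-likelihood test over 19771 genes with Benjamini-Hochberg adjustment, and a gene is called where the adjusted p is under 0.05. In bulk RNA, fewer cells that express a gene and less RNA per cell cannot be told apart.

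Most laminin genes were higher in 5-FU, and the integrin genes went both ways. Of the 31 genes described, 26 were expressed enough to be tested, and 16 of these (61.5%) were called higher and 5 (19.2%) lower. Over all tested genes, 36.3% were called higher and 33.9% lower, 70.2% in all, against 80.8% of the tested members. Of the 9 tested laminin genes, 7 were higher, none was lower and 2 were not called (LAMC1 and LAMC3). Of the 17 tested integrin genes, 9 were higher, 5 were lower (ITGA5, ITGA6, ITGA11, ITGB1 and ITGB5) and 3 were not called (ITGA2, ITGA2B and ITGB2). The median log2 fold change was 1.33 for the tested laminin genes and 0.72 for the tested integrin genes, beside 0.09 for all tested genes. These counts leave out 5 genes under the filter, and ITGB7 and LAMA2 passed it only through their 5-FU libraries, so the median of tested members is not that of all members. With upper-quartile scaling, which moved every gene's log2 fold change up by 0.36 at the median, 18 members were higher and 2 lower, and the share of calls that were higher over all genes went from 51.7% to 67.5%. With limma on log2(FPKM + 0.1) or log2(FPKM + 1) and a filter on FPKM, that share was 37.5% to 37.7%. In these fits, which change the test, the unit and the filter together, 6 or 7 of the 16 members tested were higher and 6 lower.

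**Figure D1:**
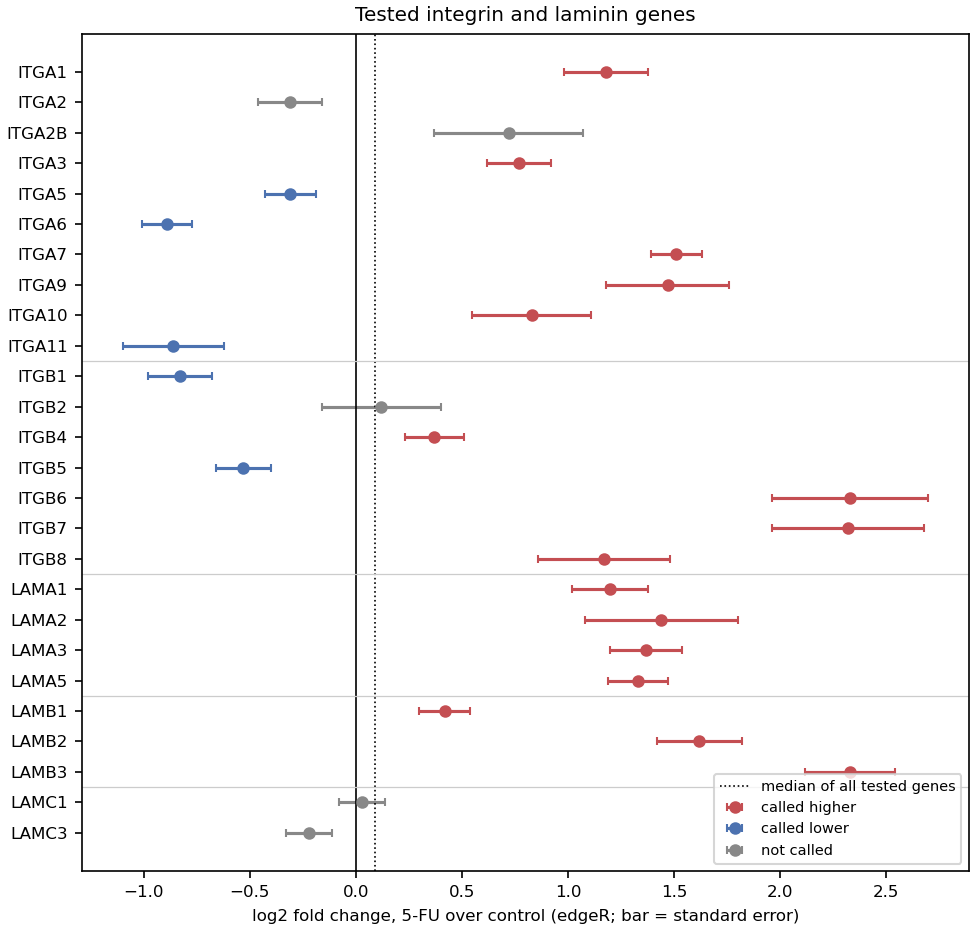
Log2 fold change of each tested integrin and laminin gene, 5-FU over control, from edgeR; points are estimates, bars are 1 standard error, colour gives the call, and the dotted line is the median of all tested genes at 0.09. LAMB3, ITGB6 and ITGB7 sit farthest to the right, all above 2.3, and ITGA6, ITGA11 and ITGB1 farthest to the left, between -0.89 and -0.83.

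LAMA5 and LAMA3 encode the α chains of the epithelial laminins, and both more than doubled. LAMA5 (ENSG00000130702), the α chain of laminin-511 and laminin-521, was at 405, 378 and 411 CPM in control 1 to 3 and at 1004, 1077 and 929 CPM in 5-FU 1 to 3. Every 5-FU library was above every control library, and the spread within each group was small beside the gap. LAMA5 had a log2 fold change of 1.33 (SE 0.14, adjusted p = 8.11e-06, edgeR), a 2.52-fold rise. LAMA3 (ENSG00000053747), the α chain of laminin-332, was at 134, 97.2 and 101 CPM in control and at 341, 281 and 239 CPM in 5-FU. The groups stood apart here too, with replicate 1 the highest of its group in both. Its log2 fold change was 1.37 (SE 0.17, adjusted p = 2.73e-05, edgeR).

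Since these genes rose by nearly the same factor, their balance stayed within the spread between libraries. LAMA3 made up 21.0% ± 2.70 (SD, n = 3) of the summed FPKM of the 5 laminin α genes in control and 21.5% ± 2.73 in 5-FU, and LAMA5 78.0% ± 2.73 and 77.6% ± 2.67. The log2 ratio of LAMA3 to LAMA5 within a library differed by 0.04 between the groups, with group SDs of 0.23 and 0.23 (exact two-sided permutation p = 0.5). The summed FPKM of the α genes went from 37.1 ± 2.81 to 85.0 ± 6.25.

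The other laminin α genes were scarce. LAMA1, the α chain of the laminin of early embryonic basement membranes, rose from 4.39 ± 0.421 to 10.1 ± 1.17 CPM (log2 fold change 1.20, SE 0.18, adjusted p = 0.000122, edgeR). LAMA2, the main α chain around muscle fibres, rose from 0.640 ± 0.278 to 1.76 ± 0.172 CPM, or 7 to 20 counts per control library and 33 to 37 per 5-FU library (log2 fold change 1.44, SE 0.36, adjusted p = 0.0035, edgeR). LAMA4, a chain of blood vessel laminins, was without a read in control and had 4, 4 and 3 reads in 5-FU 1 to 3, too few to test.

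LAMB3, the β chain of laminin-332, had the steepest rise of the abundant members. LAMB3 (ENSG00000196878) was at 177, 172 and 138 CPM in control and at 1093, 742 and 615 CPM in 5-FU. The lowest 5-FU library was above the highest control library by a wide margin, and within 5-FU the values spread more than in control. For LAMB3 the log2 fold change was 2.33 (SE 0.21, adjusted p = 4.1e-06, edgeR), a 5.04-fold rise. LAMB2 (ENSG00000172037), the β chain of laminin-521, was at 149, 196 and 146 CPM in control and at 663, 445 and 404 CPM in 5-FU. Its 5-FU 1 value was again the highest, and its groups did not overlap. LAMB2 rose by 1.62 on the log2 scale (SE 0.20, adjusted p = 2.73e-05, edgeR).

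LAMB1, the β chain of laminin-511, changed far less. LAMB1 (ENSG00000091136) was at 125, 144 and 133 CPM in control and at 192, 169.9 and 174 CPM in 5-FU. The groups stood apart, with a log2 fold change of 0.42 (SE 0.12, adjusted p = 0.00771, edgeR), and 15 of 19 alternative settings kept the call. It was lost without control 1 (adjusted p = 0.064, edgeR). LAMB4 was not tested: its reads numbered 2, 0 and 0 in the control libraries and 3, 7 and 3 in those of 5-FU.

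The β genes therefore changed their proportions where the α genes did not. LAMB3 went from 46.2% ± 3.76 to 64.3% ± 2.01 of the summed β chain FPKM and LAMB1 from 22.1% ± 2.08 to 8.45% ± 1.71, with no overlap between groups. The ratio of LAMB3 to LAMB1 was 2.47, 2.07 and 1.79 in control 1 to 3 and 9.86, 7.59 and 6.14 in 5-FU 1 to 3. This is a log2 difference of 1.88, or 3.69-fold (exact two-sided permutation p = 0.1, the smallest that 3 against 3 allows, and 0.150 adjusted over the 9 chain ratios computed).

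The γ genes LAMC1 and LAMC3 did not pass the test. LAMC1 (ENSG00000135862), the γ chain shared by most laminins, was at 223, 239 and 227 CPM in control and at 227, 245 and 230.0 CPM in 5-FU. The groups overlapped, and the log2 fold change was 0.03 (SE 0.11, adjusted p = 0.839, edgeR). Its sign depended on the scaling, and with upper-quartile scaling (0.38, adjusted p = 0.0094, edgeR) and a minimum mean count of 50 (0.28, adjusted p = 0.038, edgeR) it was called higher. LAMC3, a γ chain best known from the brain and retina, was at 44.5, 47.6 and 47.6 CPM in control and at 36.8, 43.3 and 40.0 CPM in 5-FU and was not called (log2 fold change -0.22, SE 0.11, adjusted p = 0.109, edgeR). It was called lower in 5 of 19 alternative settings, among them the DESeq2 test (-0.36, adjusted p = 0.0371), and its sign turned with upper-quartile scaling (0.14) and with a minimum mean count of 50 (0.03).

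**Figure D2:**
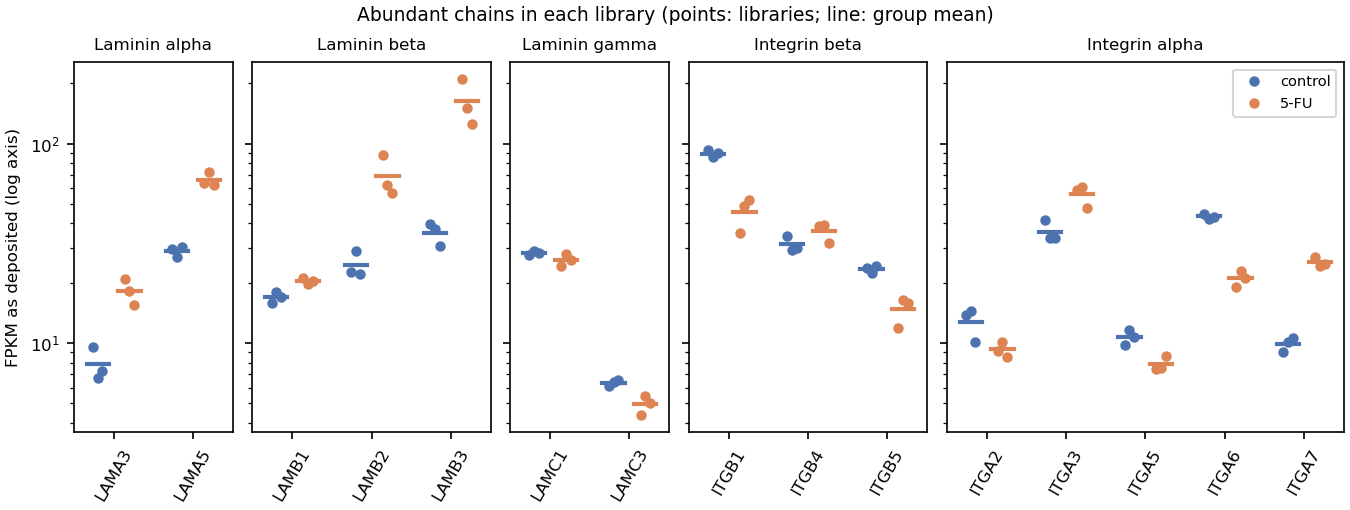
Deposited FPKM (log axis) of the more abundant laminin and integrin chains, with 1 point per library, control in blue and 5-FU in orange, and a line at each group mean. LAMB3 rises from a mean of 35.9 to 162 and LAMA5 from 28.9 to 65.9, LAMC1 stays near 28.3 and 26.1, and ITGB1 falls from 89.2 to 45.4 and ITGA6 from 43.3 to 21.2.

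Of the chains of laminin-311 and laminin-321, which hold α3 beside γ1, LAMA3 was the scarcest per length in every library. Their limiting message therefore went from 7.84 ± 1.50 to 18.3 ± 2.72 FPKM, 2.33-fold (exact permutation p = 0.1). In 5-FU 1 the margin was small, with LAMA3 at 21.0 and LAMB1 at 21.3 FPKM. The length used for LAMA3, 14678 bases, is that of the merged exons of its short and long forms. If the short form was the one read, its level per length is understated, and LAMA3 may not be the scarcest chain.

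For the laminins that hold α5, the limiting chain rose less than LAMA5 itself. In laminin-511 it was LAMB1 in all 6 libraries, at 17.1 ± 0.981 FPKM in control and 20.6 ± 0.708 in 5-FU (1.21-fold). For laminin-521 it was LAMA5 or LAMB2 in control, at 24.0 ± 2.56 FPKM, and LAMC1 in every 5-FU library, at 26.1 ± 1.74 FPKM. Those groups overlapped (exact permutation p = 0.3). Which chain is limiting here depends on the merged exon lengths, as for LAMA3. These are levels of messages and not of assembled protein.

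Promoter sequence was available in RefSeq's table (GRCh38.p14, 250 bases before to 50 after a start) for 23 of the 31 genes, among them LAMA3 and LAMB3, which both encode chains of laminin-332 and both rose. The windows were searched on both strands for the AP-1 letters TGAGTCA, a motif read by the FOS and JUN factors. Matches stood in 3 of the 29 windows of these members (1 each in LAMA3, LAMB3 and ITGA5), and in 4.95% of the 35116 windows of the table. The 3 windows are shown because LAMA3 and LAMB3 rose while ITGA5, which holds the same letters, did not. Capitals mark the AP-1 letters, and each is written 5′ to 3′ on the gene's own strand.
LAMA3, chr18:23872770-23873069, plus strand: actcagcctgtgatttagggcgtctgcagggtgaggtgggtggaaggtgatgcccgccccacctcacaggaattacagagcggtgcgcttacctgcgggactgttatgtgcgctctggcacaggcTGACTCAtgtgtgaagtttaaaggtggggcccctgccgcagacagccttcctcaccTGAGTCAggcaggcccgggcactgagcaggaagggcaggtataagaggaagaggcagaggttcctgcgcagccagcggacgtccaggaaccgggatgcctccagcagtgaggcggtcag
LAMB3, chr1:209651325-209651624, minus strand: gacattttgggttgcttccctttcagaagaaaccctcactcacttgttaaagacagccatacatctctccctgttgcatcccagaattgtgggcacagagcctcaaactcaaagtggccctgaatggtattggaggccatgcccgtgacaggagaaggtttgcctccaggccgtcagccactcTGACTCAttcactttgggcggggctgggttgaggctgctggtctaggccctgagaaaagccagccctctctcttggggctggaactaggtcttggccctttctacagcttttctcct
ITGA5, chr12:54419217-54419516, minus strand: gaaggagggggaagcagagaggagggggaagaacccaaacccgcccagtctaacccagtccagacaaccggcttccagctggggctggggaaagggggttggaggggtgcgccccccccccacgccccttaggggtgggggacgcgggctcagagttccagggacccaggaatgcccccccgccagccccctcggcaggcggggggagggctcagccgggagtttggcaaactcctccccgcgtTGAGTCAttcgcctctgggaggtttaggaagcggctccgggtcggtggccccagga
The LAMA3 window holds 2 matches, beginning 125 and 69 bases before the start, at an internal start 183577 bases from the gene's 5′ end. In LAMB3 the match begins 67 bases before a start that lies 1092 bases inside the gene, and the other 2 LAMB3 windows hold none. In ITGA5 it begins 6 bases before the start. Counts per gene pool all starts, so the levels above do not tell which start was used, and a match of letters is no measure of binding.

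Some other letters were searched in the same way. The GC box GGGCGG stood in 18 of the 29 windows, from 13 members, and in 45% of all windows. The ETS letters CCGGAAG, read by the family that holds ELF3, stood in 3 of the 29 (ITGA6, ITGB5 and LAMA5) and in 10.3% of all windows. The TEAD letters GGAATG stood in 4 of the 29 and in 14% of all, and the TATA letters TATAAA in 2 of the 29 and in 11.5% of all. The GC box letters can overlap one another, and the AP-1, ETS and TEAD letters each stood both in members called higher and in members called lower.

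Among the integrin β genes, ITGB1 and ITGB5 fell while ITGB4 and the scarce ITGB6, ITGB7 and ITGB8 rose. ITGB1 (ENSG00000150093), the β chain of most matrix receptors, was at 530.5, 504 and 515 CPM in control and at 237, 307 and 326 CPM in 5-FU. The control libraries were tightly grouped and all 5-FU libraries lay far under them. In log2 terms ITGB1 changed by -0.83 (SE 0.15, adjusted p = 0.000361, edgeR), a 1.78-fold fall. ITGB5 (ENSG00000082781), which pairs with αV to bind vitronectin, was at 147, 143 and 149 CPM in control and at 85.7, 111 and 108 CPM in 5-FU. It too fell in every 5-FU library, by 0.53 on the log2 scale (SE 0.13, adjusted p = 0.00297, edgeR). This call was lost with upper-quartile scaling (adjusted p = 0.206, edgeR) and with a minimum mean count of 50 (adjusted p = 0.0535, edgeR).

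ITGB4 (ENSG00000132470), the hemidesmosome chain, was at 223, 194 and 194 CPM in control and at 289, 278 and 225 CPM in 5-FU. The 5-FU 3 value was barely above control 1, and on the FPKM scale the groups overlapped. The log2 fold change was 0.37 (SE 0.14, adjusted p = 0.027, edgeR), and 11 of 19 alternative settings kept the call. It was lost without control 2, control 3 or 5-FU 2 (adjusted p = 0.1, 0.13 and 0.107, edgeR).

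The scarce β genes rose by larger factors from low levels. ITGB6, an epithelial partner of αV known from wounds and carcinomas, was at 1.57, 0.949 and 0.592 CPM in control and at 7.54, 4.54 and 3.74 CPM in 5-FU. Both groups spread about as much on the log scale, and they did not overlap. Its log2 fold change was 2.33 (SE 0.37, adjusted p = 0.000187, edgeR), 5.02-fold. ITGB8, another αV partner, rose from 1.73 ± 0.386 to 3.89 ± 1.25 CPM (log2 fold change 1.17, SE 0.31, adjusted p = 0.00495, edgeR). ITGB7, a β chain of lymphocyte homing receptors, had 5 to 15 counts per control library and 48 to 61 per 5-FU library (log2 fold change 2.32, SE 0.36, adjusted p = 0.000149, edgeR). ITGB7 shares 42.1% of its exonic bases with ZNF740 on the opposite strand, and the sources used here do not say whether counting used strand. ZNF740 itself was lower in 5-FU, at 57.5, 66.0 and 55.0 CPM in control and 39.5, 44.3 and 39.0 CPM in 5-FU.

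ITGB2, the β chain of leukocyte integrins, was at 13.7, 10.2 and 7.30 CPM in control and at 7.23, 16.0 and 10.8 CPM in 5-FU. It was under ITGAX, its partner in αXβ2, in FPKM in every library (0.961 to 2.24 against 3.92 to 15.1 FPKM). The groups overlapped, and it was not called (log2 fold change 0.12, SE 0.28, adjusted p = 0.711, edgeR). ITGB3, the β chain of platelets and vessels, had 5 to 11 counts per library and was not tested.

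These shifts changed the makeup of the β genes. ITGB1 went from 61.0% ± 0.758 to 45.0% ± 5.42 of the summed β chain FPKM and ITGB4 from 21.4% ± 0.950 to 36.8% ± 6.11. Neither overlapped between groups, while the share of ITGB5 did (16.1% ± 0.575 and 14.7% ± 1.16). Within a library, ITGB4 to ITGB1 was 0.373, 0.342 and 0.336 in control and 1.09, 0.806 and 0.613 in 5-FU, a 2.32-fold difference (exact two-sided permutation p = 0.1, 0.150 adjusted over 9 ratios). ITGB6 to ITGB5 differed 7.61-fold with the same p-values, yet ITGB6 stayed at 1.07% ± 0.479 of the β sum in 5-FU. The β sum itself went from 146 ± 7.24 to 100.4 ± 9.80 FPKM.

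The α chains that bind laminin moved in opposite directions. ITGA6 (ENSG00000091409), the partner of both β1 and β4, was at 279, 271 and 268 CPM in control and at 139, 157 and 146 CPM in 5-FU. Each 5-FU library lay far under each control library. Its log2 fold change was -0.89 (SE 0.12, adjusted p = 4.3e-05, edgeR), and all 19 alternative settings kept the call. ITGA3 (ENSG00000005884), the α chain of the laminin-332 and laminin-511 receptor α3β1, was at 389, 323 and 314 CPM in control and at 638, 623 and 487 CPM in 5-FU. Here the groups stood apart upward, with a log2 fold change of 0.77 (SE 0.15, adjusted p = 0.000864, edgeR). ITGA7 (ENSG00000135424), best known as the laminin receptor chain of muscle, was at 54.8, 63.4 and 64.5 CPM in control and at 190.3, 163 and 166 CPM in 5-FU. Its groups were tight and far apart, and the log2 fold change was 1.51 (SE 0.12, adjusted p = 2.47e-06, edgeR), 2.84-fold. Of the 4 muscle markers listed (DES, MYOD1, ACTA1 and MYH11), 3 were tested. Of these, 2 were higher (66.7%, against 36.3% of all tested genes) and 1 was lower (33.3%, against 33.9%). ACTA1, 1 of the 2 higher, passed the filter only through its 5-FU libraries, where it is high. The 4 markers summed to 12.5 to 23.9 CPM in control and 13.2 to 14.9 CPM in 5-FU. DES fell from a mean of 11.6 to 3.96 CPM, while ACTA1 rose from 0.167 to 2.66 CPM and MYH11 from 4.59 to 7.25 CPM, and their part in the result for ITGA7 was not tested.

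As a share of the summed FPKM of 18 integrin α genes (the members and the 6 with letter names), ITGA6 went from 27.1% ± 0.582 to 13.2% ± 1.16 and ITGA3 from 22.6% ± 1.99 to 34.5% ± 3.03. ITGA7 went from 6.22% ± 0.747 to 15.8% ± 1.09. None of these overlapped between groups, and the α sum was 159.7 ± 6.24 FPKM in control and 161 ± 7.04 in 5-FU. In the order of FPKM over the 31 genes, ITGA6 was at rank 2 in control and rank 9 in 5-FU, and LAMB3 went from rank 4 to rank 1.

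**Figure D3:**
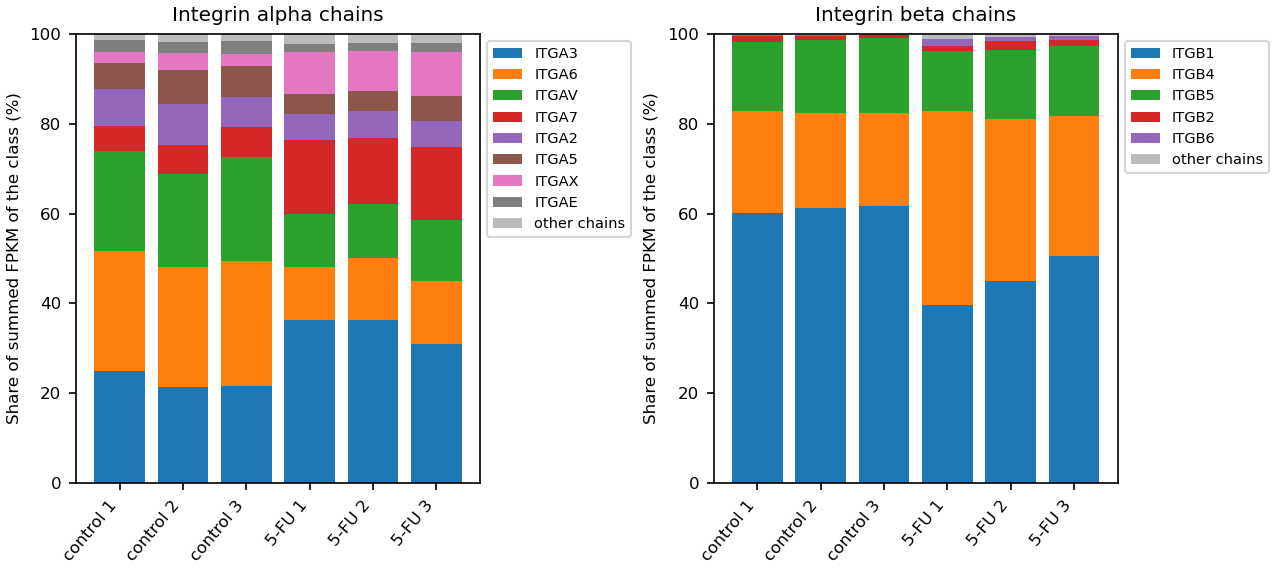
Share of the summed FPKM of the integrin α chains (left) and β chains (right) in each library, as stacked bars that reach 100%. ITGA6 and ITGAV narrow while ITGA3, ITGA7 and ITGAX widen in the 3 5-FU libraries, and ITGB1 narrows from about 61.0% to 45.0% as ITGB4 widens.

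ITGA6 and its partners changed in different ways. ITGA6 to ITGB1 was 0.483, 0.494 and 0.479 in control and 0.539, 0.471 and 0.411 in 5-FU, so the pair fell by about the same factor (log2 difference -0.04, exact two-sided permutation p = 0.7). ITGA6 to ITGB4 was 1.29, 1.44 and 1.43 in control and 0.497, 0.584 and 0.671 in 5-FU. Per merged exon length (6533 bases for ITGA6, 6761 for ITGB4), the α6 message was thus above the β4 message in every control library. In every 5-FU library it was under it (log2 difference -1.26, exact permutation p = 0.1, 0.150 adjusted over 9 ratios). The difference was also -1.26 for the ratio of counts, while which chain is above depends on these lengths. The limiting chain of α6β4 was ITGB4 in control, at 31.3 ± 2.82 FPKM, and ITGA6 in 5-FU, at 21.2 ± 1.90 FPKM. For α6β1 it was ITGA6 throughout, at 43.3 ± 1.28 and 21.2 ± 1.90 FPKM. The same ITGA6 messages serve both receptors, so these values cannot be added.

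For α3β1, ITGA3 was under ITGB1 in all control libraries, with ratios of 0.449, 0.393 and 0.374. In 5-FU the ratios were 1.65, 1.25 and 0.916, 3.06-fold higher by the group means of the logs. ITGA3 was the more abundant in 5-FU 1 and 5-FU 2 per merged exon length (9802 bases for ITGA3, 6011 for ITGB1), and this order depends on those lengths. The limiting message of α3β1 was 36.2 ± 4.61 FPKM in control and 44.0 ± 7.31 in 5-FU, and the groups overlapped (exact permutation p = 0.2). The limiting message of α7β1, ITGA7 in every library, went from 9.91 ± 0.824 to 25.4 ± 1.34 FPKM. ITGB1 messages serve all β1 receptors, and each pair is set against all of them. In 5-FU the mean of ITGA3 alone, 55.7 FPKM, was above that of ITGB1, 45.4 FPKM. The value for α7β1 therefore does not show that more of this pair could form.

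**Figure D4:**
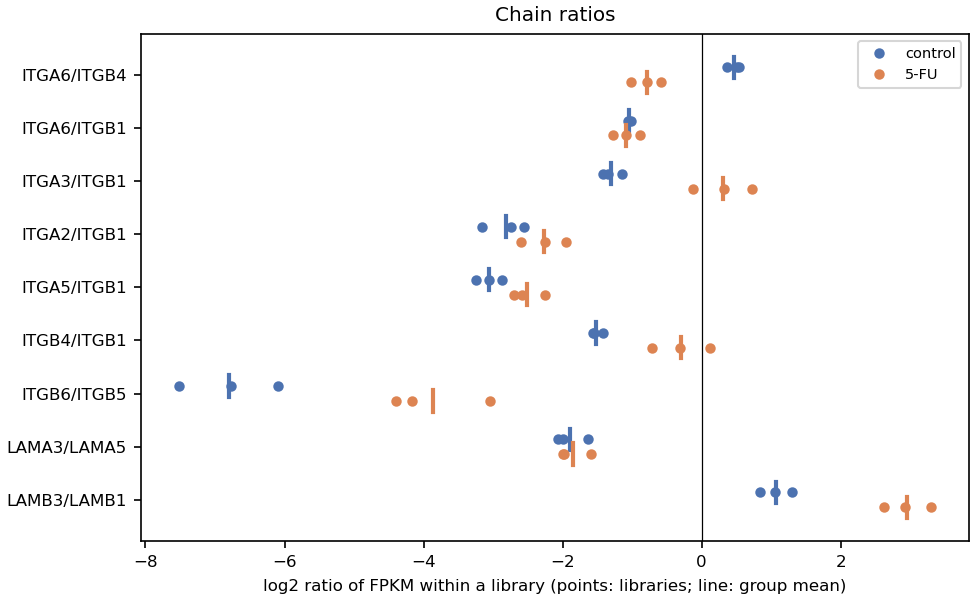
Log2 ratio of the FPKM of 2 chains within each library for 9 pairs, with 1 point per library and a line at the group mean. At 0 the FPKM values, which are per merged exon length, are equal. ITGA6/ITGB4 crosses from above 0 in control to under 0 in 5-FU, ITGA6/ITGB1 and LAMA3/LAMA5 overlap between the groups, and LAMB3/LAMB1 moves to the right by 1.88.

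Among collagen receptor chains, the abundant one did not pass the test. ITGA2 (ENSG00000164171), the α chain of the epithelial collagen receptor, was at 104, 113 and 75.8 CPM in control and at 80.6, 84.4 and 71.0 CPM in 5-FU. The groups overlapped through control 3, the lowest of its group. ITGA2 had a log2 fold change of -0.31 (SE 0.15, adjusted p = 0.0824, edgeR), and without control 3 it was -0.50 (adjusted p = 0.0086, edgeR). It was called lower in 5 of 19 alternative settings in all. ITGA1, a collagen receptor chain of mesenchymal and other cells, rose from 3.68 ± 0.206 to 8.37 ± 1.57 CPM (log2 fold change 1.18, SE 0.20, adjusted p = 0.000287, edgeR), and 5.63% of its exonic bases are shared with other genes on the same strand. ITGA10, known from cartilage, was at 3.23, 3.16 and 3.75 CPM in control and at 8.10, 6.31 and 3.60 CPM in 5-FU. It was called higher (log2 fold change 0.83, SE 0.28, adjusted p = 0.0199, edgeR) although 5-FU 3 lay within the control range, and leaving out 5-FU 1, 5-FU 2, control 1 or control 2 lost the call (adjusted p = 0.0888, 0.0545, 0.0636 and 0.0591, edgeR). ITGA11, a collagen receptor chain of fibroblasts, fell from 6.42 ± 1.61 to 3.54 ± 0.550 CPM (log2 fold change -0.86, SE 0.24, adjusted p = 0.00655, edgeR), and that call was lost with upper-quartile scaling (adjusted p = 0.091, edgeR) and with unfiltered log2(FPKM + 1) (-0.30, adjusted p = 0.0626, limma).

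Chains of the RGD-binding receptors were lower where they were abundant. ITGA5 (ENSG00000161638), the α chain of the fibronectin receptor, was at 71.0, 87.1 and 77.8 CPM in control and at 62.6, 59.4 and 68.8 CPM in 5-FU. The highest 5-FU library came within a few CPM of the lowest control library. Its log2 fold change was -0.31 (SE 0.12, adjusted p = 0.0388, edgeR), which held in 10 of 19 alternative settings and was 0.05 with upper-quartile scaling. The call was lost without 5-FU 1, 5-FU 2, control 2 or control 3 (adjusted p = 0.0821, 0.136, 0.0813 and 0.0539, edgeR). ITGAV, which the naming rule leaves out and which is the α partner of β5, β6 and β8, fell from 292, 264 and 279 CPM to 174, 173 and 181 CPM (log2 fold change -0.66, SE 0.11, adjusted p = 0.000341, edgeR). The limiting message of αVβ5 went from 23.5 ± 0.911 to 14.8 ± 2.47 FPKM and that of αVβ1 from 35.2 ± 2.26 to 20.1 ± 0.999 FPKM. For αVβ6 it was ITGB6, at 0.230 ± 0.111 and 1.05 ± 0.360 FPKM, so the rise of ITGB6 left this receptor's scarcer message far under that of αVβ5. ITGA8, a chain of kidney and smooth muscle, had 0 counts in the control libraries and 1, 3 and 2 in the 5-FU libraries.

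The remaining α genes of the rule were scarce. ITGA9, a receptor chain for tenascin that lymphatic valves need, was at 0.807, 1.58 and 1.04 CPM in control and at 3.21, 3.03 and 3.31 CPM in 5-FU. All 5-FU libraries lay above control (log2 fold change 1.47, SE 0.29, adjusted p = 0.000822, edgeR). Its opposite-strand neighbour ITGA9-AS1, which shares 6.46% of the exonic bases of ITGA9, also rose (log2 fold change 0.77, SE 0.19, adjusted p = 0.0037, edgeR). ITGA2B, a platelet chain, was at 1.04 ± 0.381 and 1.73 ± 0.412 CPM and was not called (log2 fold change 0.72, SE 0.35, adjusted p = 0.0797, edgeR). ITGA4, a lymphocyte chain, had 0 or 1 count in every library. Of the 6 α genes with letter names, ITGAX and ITGAD were higher, ITGAV and ITGAE lower, ITGAM was not called and ITGAL was not tested; ITGAD passed the filter only through its 5-FU libraries. ITGAX, a chain of myeloid cells, was at 26.5, 42.6 and 28.4 CPM in control and at 117, 109 and 112 CPM in 5-FU (log2 fold change 1.79, SE 0.17, adjusted p = 5.09e-06, edgeR). Of 7 leukocyte markers, 6 stayed under 1 CPM in all libraries, the pan-leukocyte gene PTPRC among them. The seventh, the myeloid gene CD14, was at 6.73, 6.15 and 7.06 CPM in control and at 6.62, 5.06 and 6.63 CPM in 5-FU and was not called (log2 fold change -0.12, SE 0.19, adjusted p = 0.577, edgeR).

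Of a list of 32 complexes of these chains, which holds no β2 integrin, 12 had a limiting message of at least 1 FPKM in every library of a group. A chain shared by several complexes, such as ITGB1 or LAMC1, was counted in full for each. Those of α6β1, α6β4, α5β1, αVβ1 and αVβ5 were lower in 5-FU without overlap, and those of α7β1, laminin-511, laminin-311 and laminin-321 (which share LAMA3 as the limiting message) were higher without overlap. The limiting messages of α2β1, α3β1 and laminin-521 overlapped between groups. Over all tested genes, the CPM ranges of the groups were apart in 74.3%, so groups that stand apart are not particular to these complexes. ITGA6 is the limiting message of both α6β1 and α6β4 in 5-FU, so those results are not separate. With 3 libraries against 3, none can have an exact permutation p under 0.1, and adjusted over the 12 the smallest was 0.133.

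Seen by library, the CPM ranges of the groups were apart in 21 of the 26 tested members, against 74.3% of all tested genes. The 5 that overlapped were ITGA2, ITGA2B, ITGA10, ITGB2 and LAMC1. ITGA10 is the member called despite overlapping, and LAMC3 the member apart but not called.

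Of 34 adaptors and kinases that act with integrins inside the cell, all tested, 4 were higher (11.8%, against 36.3% of all tested genes), 13 were lower (38.2%, against 33.9%) and 17 were not called. The share lower is near that of all genes, 1 of the 4 higher passed the filter only through its 5-FU libraries, and the median log2 fold change was -0.08. FERMT1, the epithelial kindlin that activates integrins, fell from 102, 83.9 and 96.6 CPM to 26.0, 22.8 and 23.2 CPM (log2 fold change -1.97, SE 0.12, adjusted p = 7.77e-07, edgeR). CRK, an adaptor of focal adhesion signalling, fell by 1.31 on the log2 scale (SE 0.11, adjusted p = 3.19e-06, edgeR), and LIMS1, the PINCH partner of integrin-linked kinase, fell by 1.26 (SE 0.12, adjusted p = 5.88e-06, edgeR).

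Of 13 tested of 14 hemidesmosome partners and tetraspanins, 6 were higher (46.2%, against 36.3% of all tested genes), 1 was lower (7.69%, against 33.9%) and 6 were not called. The median log2 fold change was 0.61, and the share called, 53.8%, was under the 70.2% of all tested genes. KRT5, which was not called, passed the filter only through its 5-FU libraries. Its own log2 fold change was 0.61, so the median rests on it. COL17A1, the transmembrane collagen of hemidesmosomes, was at 102, 54.7 and 56.9 CPM in control and at 578, 435 and 284 CPM in 5-FU (log2 fold change 2.60, SE 0.29, adjusted p = 1.35e-05, edgeR). Its groups did not overlap. DST, whose epithelial product links keratin to hemidesmosomes, rose by 1.12 on the log2 scale (SE 0.12, adjusted p = 9.02e-06, edgeR), and the tetraspanin gene TSPAN8 by 1.04 (SE 0.13, adjusted p = 2.35e-05, edgeR).

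Of 29 genes of the basement membrane and other integrin ligands, 23 were tested, and 15 were higher (65.2%, against 36.3% of all tested genes), 2 lower (8.7%, against 33.9%) and 6 not called, with a median log2 fold change of 1.09. NID1, NID2 and COL4A3, all among the 15, passed the filter only through their 5-FU libraries, where they are high. NTN4, a netrin that binds laminin γ chains, was at 3.10, 2.98 and 2.47 CPM in control and at 24.5, 28.9 and 27.6 CPM in 5-FU (log2 fold change 3.24, SE 0.17, adjusted p = 4.92e-07, edgeR). COL7A1, the collagen of the fibrils that anchor laminin-332, rose by 1.85 (SE 0.15, adjusted p = 2.52e-06, edgeR), and MFGE8, a ligand of αV integrins, by 1.58 (SE 0.13, adjusted p = 2.88e-06, edgeR).

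Of 11 tested laminin receptors other than integrins, 3 were higher (27.3%, against 36.3% of all tested genes), 4 lower (36.4%, against 33.9%) and 4 not called, shares near those of all genes, and their median log2 fold change was -0.20. BCAM, the receptor for the laminin α5 chain, was at 162, 151 and 152 CPM in control and at 546, 488 and 450.2 CPM in 5-FU (log2 fold change 1.67, SE 0.13, adjusted p = 1.94e-06, edgeR). BCAM and LAMA5 were thus both higher. RPSA, a ribosomal protein also described as a laminin receptor, fell by 1.82 (SE 0.23, adjusted p = 3.06e-05, edgeR), although near-identical pseudogene copies make its counts uncertain, and the syndecan gene SDC1 fell by 1.17 (SE 0.17, adjusted p = 7.97e-05, edgeR). A list for the processing of laminin-332 held 12 genes, of which 8 were tested and 4 were not. It holds proteases and also PLAUR, which encodes the receptor of a protease. Of the 8 tested, 4 were higher, 2 lower and 2 not called, so 75% were called, near the 70.2% of all tested genes. PLAT, tissue plasminogen activator, rose by 1.53 (SE 0.18, adjusted p = 2.15e-05, edgeR), BMP1 rose by 0.56 (SE 0.12, adjusted p = 0.00114, edgeR) and MMP7 fell by 1.13 (SE 0.28, adjusted p = 0.00355, edgeR).

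Colorectal epithelium markers were present in all libraries. The 10 listed summed to 4927 to 6738 CPM in control and 3722 to 4603 CPM in 5-FU, and none was under 1 CPM throughout. Of the 10, 1 was higher (10%, against 36.3% of all tested genes), 4 were lower (40%, against 33.9%) and 5 were not called. The share lower is near that of all genes. The 1 called higher, KRT20, passed the filter only through its 5-FU libraries, where it is high. The sum of 7 fibroblast markers was 15.7 to 20.2 CPM in control and 34.3 to 64.7 CPM in 5-FU. Nearly all of it was COL1A1, at means of 15.2 and 42.4 CPM, while 5 of the 7 stayed under 1 CPM in every library and 2 were at 0 throughout. The sums of the scarce marker lists of other cells were also higher in 5-FU for endothelium (2.37 to 3.25 CPM in control, 3.88 to 5.55 in 5-FU) and platelets (4.89 to 5.74 and 8.62 to 13.4 CPM), while those of Schwann cells overlapped (0.987 to 1.40 and 1.33 to 2.24 CPM). GP1BA of the platelet list (log2 fold change 1.04), VWF of the endothelium list (0.97) and SOX10 of the Schwann cell list (1.12) were called higher (adjusted p = 0.000731, 0.00934 and 0.0307, edgeR). Among them, SOX10 passed the filter only through its 5-FU libraries, so its call has to be read with that limit. The part of these markers in the results for the integrin and laminin genes was not tested.

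The 31 genes lie at positions that match GENCODE 29 (GRCh38) in all 31 cases, and some lie side by side. ITGA1 and ITGA2 are 30.1 kb apart on chromosome 5, with no protein-coding gene between them, and there ITGA1 rose while ITGA2 was not called. LAMB1 and LAMB4 are 20.3 kb apart on chromosome 7. LAMB3 spans chr1:209614870-209652466, LAMA3 chr18:23689443-23956222, LAMA5 chr20:62307955-62367312 and LAMB2 chr3:49121114-49133118. ITGB1 spans chr10:32900319-33005792, ITGB4 chr17:75721328-75757818, ITGA3 chr17:50055968-50090481, ITGA6 chr2:172427354-172506282 and ITGA7 chr12:55684568-55716043. Exonic overlap with other genes was 0 for ITGA3, ITGB4, LAMA3, LAMB2 and LAMC1, and 5.37% on the opposite strand for ITGA6. ITGB6 shares 20.6% of its exonic bases with a gene on the same strand, AC092153.1, and ITGB3 51.6% with AC068234.1. Since counts are per gene, the short and long forms of LAMA3 and the splice forms of ITGA6 are pooled.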

How the data were processed

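Gene-level RNA-seq from 3 control and 3 5-FU libraries was used. Tools listed per the submitters' processing notes are featureCounts (1.5.0-p3), HISAT2 (2.0.5) and DESeq2 (1.16.1), and the build is GRCh38. The deposited counts are raw whole numbers per gene. The deposited FPKM values, made by the authors, carry an extra scaling: the constant behind them was 0.892 to 0.986 of the library total in control and 1.07 to 1.16 in 5-FU, so changes of single genes are tested on counts, and FPKM, which compares chains, carries this scaling in any level set across groups. The deposited gene lengths match the merged exons of GENCODE 29. Log2 fold changes were computed here with edgeR 4.0.16 (R 4.3.3, TMM, filterByExpr with a minimum count of 10, quasi-likelihood test). The same fit was run on simulated counts in which only a few genes changed. In these data most tested genes were called, so that run does not speak for the scaling used here. Ratios and limiting chains used exact two-sided permutation tests over libraries. Sensitivity runs used limma 3.58.1 and DESeq2 1.42.0, other scalings, filters and units, a replicate block, a length and GC trend (a GC value for 19763 tested genes) and leaving out each library. The name rule finds 32 genes, of which 1 is not reported here and enters no count of members. Every other member is accounted for, the letter-named integrin chains are named as partners, and of each other list the 3 called genes with the smallest p are named. The members and lists were chosen with earlier results of these data known.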

Additional observations from a re-analysis of the deposited data

How the results depend on the processing

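Over 19 alternative settings, 14 members kept both direction and side of the threshold wherever they could be fitted; of 470 member values, 404 did so, 31 lost a call, 15 gained one and 20 changed sign. Members called higher numbered 7 with log2(FPKM + 0.1) and 6 with log2(FPKM + 1), where a filter left 16 to test, and members called lower numbered 3 with a minimum mean count of 50 and 2 with upper-quartile factors. Leaving out 1 library gave 14 to 16 higher and 4 to 5 lower. Called genes among the letter-named chains numbered 2 with the minimum mean count of 50, and among basement membrane genes 9 with log2(FPKM + 0.1) and 9 with log2(FPKM + 1). With upper-quartile factors, ITGA2 changed sign to 0.04, ITGA5 to 0.05, LAMC3 to 0.14 and ITGAE to 0.03; LAMC3 was 0.03 with the minimum mean count of 50. ITGB2 was -0.01 with the DESeq2 test, -0.04 with log2(FPKM + 0.1), -0.02 with log2(FPKM + 1) with or without a filter, -0.02 with no count filter, and -0.21 to 0.38 when 1 library was left out. LAMC1 was -0.01 with DESeq2 size factors, -0.12 with the DESeq2 test, with log2(FPKM + 0.1) and with no count filter, -0.11 with log2(FPKM + 1) with or without a filter, and -0.03 to 0.07 when 1 library was left out. ITGAM was -0.03 with the DESeq2 test, -0.02 with unfiltered log2(FPKM + 1), -0.04 with no count filter, and -0.15 to 0.27 when 1 library was left out. For these sign changes the cause was not tested. The log2 difference of ITGA6/ITGB1 ranged from -0.14 to 0.05 and that of LAMA3/LAMA5 from -0.09 to 0.17 when 1 library was left out. With TMM-scaled CPM per kilobase in place of FPKM, the log2 change of the limiting chain was -0.89 for α6β1, 1.51 for α7β1, -0.42 for α6β4, -0.31 for α5β1, -0.66 for αVβ1, 0.42 for laminin-511 and 0.27 for laminin-521; this is the extra scaling in the FPKM values. The labels do not say that same-numbered libraries are pairs, so the numbers are not read as pairs. Deviations of same-numbered libraries from their group means had correlations of -0.11, -0.283 and 0.0757, which with 3 libraries per group cannot decide this. With a replicate block, 16 members were higher and 4 lower (13243 genes called in all). There ITGA5 (adjusted p = 0.0823, edgeR) and ITGAE no longer passed the threshold. Precision is set by the 3 libraries per group. ITGA4, ITGA8, ITGB3, LAMA4 and LAMB4, at 11 counts or fewer per library, were tested in at most 3 settings, those without the count filter, where LAMA4 was called higher in 2 and the others in 0.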
